A study of Mus musculus with 18 samples.

Results

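The genes described here are 10 transcriptional targets of the tumour suppressor p53: Cdkn1a, Mdm2, Bax, Ccng1, Phlda3, Sesn1, Eda2r, Zmat3, Aen and Bbc3. They were chosen by name, and 10 of 10 were found among the 49585 gene identifiers of the count table. RNA was sequenced from 18 metastases in the lung, cut out of frozen sections by laser capture and grown from AT3, a line of mouse mammary carcinoma cells. AT3 cells carrying GFP and mCherry were placed in the mammary fat pad and reached the lung by spontaneous spread. The hosts are given as Rag2-/-IL2rg-/- in the strain label and as Rag1-/-IL2rg-/- in the growth protocol; either genotype leaves them without T, B and NK cells of their own. On day 11 the mice were injected by vein with PBS (group Ctrl) or with 60000 mouse NK cells activated in vitro (group NK); sex and age were not given in the labels.

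The NK group had 2 mice, NK1 with 3 lesions and NK2 with 4 lesions. The Ctrl group had 3 mice, titled KO1 with 5 lesions, KO2 with 4 lesions and KO3 with 2 lesions. A lesion is written as mouse and lesion number, so NK1-3 is the third lesion of mouse NK1. Lesions of a mouse share their host, so the mouse was the replicate in the treatment comparison. All of the lesions come from 1 tumour line, and separate lesions of a mouse measure spread within that host only.

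p53 is a transcription factor that is held at a low level by Mdm2, a ubiquitin ligase that marks it for degradation. DNA damage and other stress signals release p53 from Mdm2, and p53 then binds DNA near its targets and raises their transcription. Brakes on the cell cycle among the targets are Cdkn1a, which encodes the kinase inhibitor p21, and the cyclin Ccng1. Mdm2 gives feedback on p53 itself. Cell death genes are Bax and Bbc3, which act on the mitochondrial membrane, the nuclease Aen and Eda2r, of the tumour necrosis factor receptor family. Regulators of growth and RNA are Sesn1, which restrains mTOR signalling, Phlda3, which restrains Akt, and Zmat3, an RNA-binding protein. In tumours such p53 targets are commonly used as a readout of p53 activity, although each of them also has other regulators.

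The p53 consensus decamer was searched in RefSeq promoter windows (GRCm38.p6, 250 bases before to 50 after a transcription start), of which 14 belonged to 9 of the 10 genes. An exact decamer was found for 6 genes, in 7 of the 14 windows, on either strand, since its consensus reads alike on both. The windows of Aen overlap and hold the same decamer, so it is counted in both. Of all 32851 windows, 8.36% held one. A pair of decamers was allowed at most 2 mismatches in all and at most 13 bases between them. Such a pair was found for 4 genes, in 4 of the 14 windows, and in 4.09% of all windows. The pairs are shown because a p53 response element consists of a pair of decamers. Capitals mark the decamers of each pair or the single decamer named, and each sequence runs 5′ to 3′ on the strand of the gene.
Cdkn1a (chr17:29090908-29090967, plus strand, 1 mismatch): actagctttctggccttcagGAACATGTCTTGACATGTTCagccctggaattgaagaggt
Ccng1 (chr11:40755442-40755501, minus strand, 1 mismatch): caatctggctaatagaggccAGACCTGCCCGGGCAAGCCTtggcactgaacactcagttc
Bax (chr7:45467059-45467119, minus strand, 2 mismatches): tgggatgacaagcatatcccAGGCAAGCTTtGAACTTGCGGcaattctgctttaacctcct
Sesn1 (chr10:41887233-41887295, plus strand, 2 mismatches): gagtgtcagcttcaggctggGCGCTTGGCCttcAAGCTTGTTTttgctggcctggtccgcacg
The decamers of Cdkn1a and Ccng1 touch each other, those of Bax are 1 base apart and those of Sesn1 are 3 bases apart. Single exact decamers lay in the windows of Mdm2 and Aen and are shown for comparison with the pairs.
Mdm2 (chr10:117710925-117710954, minus strand): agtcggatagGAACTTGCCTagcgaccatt
Aen (chr7:78895927-78895956, plus strand): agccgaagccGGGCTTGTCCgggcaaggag
The Cdkn1a pair lay 51 to 32 bases before the upstream of its 2 annotated starts. Its last base was 2822 bases before the downstream start, so the window of that start did not hold the pair. The window of the upstream start also held an exact decamer outside the pair. It lay 73 to 64 bases before that start, and its end is in lower case above. The pair of Sesn1 lay before a start inside the gene, not before its first start. No exact decamer was in the windows of Phlda3, Bbc3 and Eda2r, which says only that these letters are not there. A match is a stretch of sequence and was not measured as bound in these lesions.

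The libraries differed in ways that touch these genes. Total expected counts ran from 2964242 to 11798897 per lesion, and a ribosomal RNA of mitochondria, mt-Rnr2, made up 12.1% to 68.7% of them. It took over 40% in 6 lesions, the 3 of NK1 and KO1-2, KO1-5 and KO3-2. The 10 genes together took 0.0174% to 0.119% of a lesion's counts. As a check of the treatment labels, 8 of 8 tested NK cell markers had higher fitted values in the NK group. Of 7 epithelial genes, Krt8, Krt18, Krt7, Krt19 and Cdh1 had counts in 18 of 18 lesions and Epcam in 17. Krt14 had 2 counts in 1 lesion. Their sum was highest in NK1-3, at 853 CPM, the lesion also highest for lung epithelium markers. These genes therefore cannot check the tumour label apart from captured lung. Summed lung epithelium markers ran from 402 CPM (counts scaled to a common library size) to 27190 CPM per lesion in the NK group. In controls they ran from 778 CPM to 17830 CPM. The marker Scgb1a1 alone, summed per mouse, had 9987 CPM in KO3, 4019 in NK1, 2198 in KO1, 599 in NK2 and 0.768 in KO2. By mean log2 CPM the markers ran from 3.44 to 7.17 in NK lesions and from 3.70 to 7.15 in controls. Captured pieces thus held unequal amounts of lung markers, and the size of the sums depends largely on Scgb1a1. In such bulk samples, fewer tumour cells and less RNA of a gene per tumour cell cannot be told apart.

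The genes were not equally abundant. Per kilobase of exon, Ccng1 stood highest at 51.0 ± 24.04 CPM per kb (SD over 5 mice), followed by Bax at 27.5 ± 10.3. Ccng1 lay above Bax in each mouse, from 79.2 against 37.03 CPM per kb in NK2 to 13.1 against 11.81 in KO3. Mdm2 (12.6 ± 1.71), Cdkn1a (11.9 ± 5.60), Zmat3 (10.4 ± 4.11) and Aen (9.69 ± 2.63) followed, and neighbours in this run differed by less than their spread over mice. The same held for Phlda3 (6.76 ± 3.30) and Sesn1 (6.66 ± 1.93). Bbc3 (2.59 ± 0.578) and Eda2r (1.41 ± 0.857) were the least abundant, and their order turned in NK1, with 1.70 CPM per kb for Bbc3 and 2.26 for Eda2r.

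**Figure D1:**
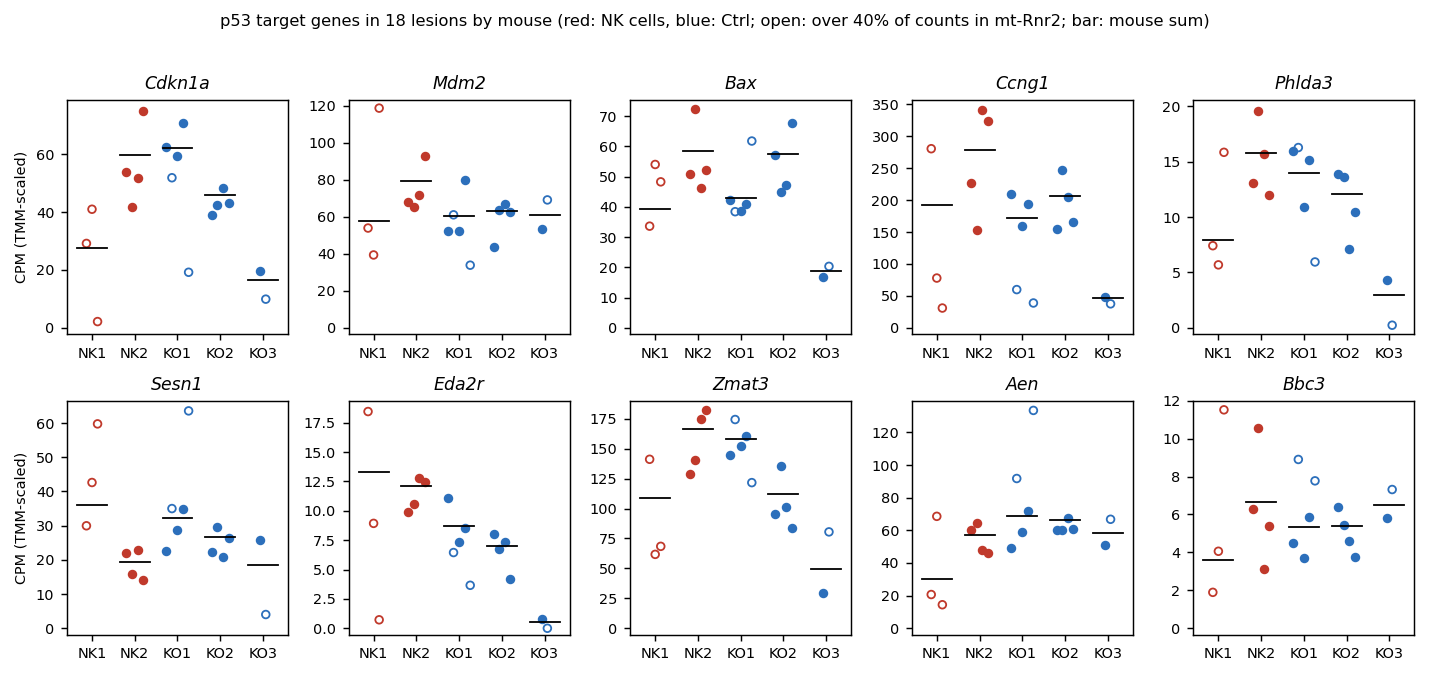
CPM of each of the 10 genes (y axis, its own scale in each panel) in 18 lesions arranged by mouse (x axis). Red points are lesions of mice with NK cells, blue points control lesions, open points lesions in which mt-Rnr2 took over 40% of counts, and bars the CPM of the counts summed over a mouse; Cdkn1a runs from 2.16 CPM in NK1-3 to 75.03 CPM in NK2-4, and the 2 lesions of KO3 are low in most panels.

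The treatment comparison asks whether these genes differed between lesions that grew with and without NK cells. None of the 10 genes differed past an adjusted p of 0.05, and 0 had an unadjusted p under 0.05 (edgeR's quasi-likelihood test on counts summed per mouse, 2 against 3 mice, Benjamini-Hochberg over 16917 genes). The background was 0 called genes, or 0% of those tested, with 426 genes at an unadjusted p under 0.05. DESeq2 on the same sums called 21 genes, and 0 of the 10. Fitted values were higher in the NK group for 8 of the 10 genes and lower for 2, with a median log2 fold change of 0.22, beside -0.03 for all genes tested. The adjusted p was 0.9998 for each of the 10. The common dispersion corresponded to a coefficient of variation of 64.9% between mice, and this breadth limits what 5 mice can show.

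Cdkn1a (ENSMUSG00000023067.13, chromosome 17, 29090976 to 29100727 on GRCm38, plus strand) had 2.16 CPM at the lowest, 41.9 CPM at the median and 75.03 CPM at the highest of the 7 NK lesions. In the 11 control lesions it had 9.91, 43.1 and 70.8 CPM. The groups therefore overlapped almost wholly. Summed per mouse it had 27.5 CPM in NK1 and 59.7 in NK2, and 62.1, 45.9 and 16.7 CPM in KO1, KO2 and KO3, a log2 fold change of 0.07 ± 0.60 (SE). One mouse of each group, NK1 and KO3, was low. The value of NK1-3 was 3 counts in the shallowest library. The fitted value was -0.31 without KO3 and -0.60 without NK2. Cdkn1a overlaps AC167363.2 on the opposite strand, and whether reads were counted by strand is not stated in the labels or notes.

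Ccng1 (ENSMUSG00000020326.7, chromosome 11, 40748552 to 40755311, minus strand), the most abundant member and the second brake on the cell cycle, had 31.0, 227 and 341 CPM (lowest, median, highest) in NK lesions and 37.5, 159 and 247 CPM in control lesions. Its mouse values were 192 CPM in NK1 and 278 in NK2, and 172, 207 and 46.1 CPM in KO1, KO2 and KO3. NK2 was highest and KO3 lowest, with NK1 between the other 2 control mice. The log2 fold change was 0.73 ± 0.60, and it was positive in each of the 33 alternative fits, at 0.27 without lesion NK1-1, which alone held 281 CPM against 77.9 and 31.0 CPM in NK1-2 and NK1-3.

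Mdm2 (ENSMUSG00000020184.14, chromosome 10, 117688875 to 117710758, minus strand) varied least over lesions. It had 39.4, 67.8 and 119 CPM in NK lesions and 33.8, 61.1 and 80.0 CPM in control lesions. Its mouse values were 57.5 CPM in NK1 and 79.4 in NK2, and 60.6, 63.0 and 60.7 CPM in KO1, KO2 and KO3, so the control mice lay within 3 CPM of each other. The log2 fold change was 0.16 ± 0.35. On the log2 CPM scale the SD of its mouse means was 0.165, where the median of all genes tested was 0.624. Its highest lesion was NK1-3, the lesion in which Cdkn1a was lowest.

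Among the cell death genes, Bax (ENSMUSG00000003873.11, chromosome 7, 45461697 to 45466898, minus strand) had 33.6, 50.9 and 72.4 CPM in NK lesions and 16.9, 42.2 and 67.8 CPM in control lesions. Its mouse values were 39.3 CPM in NK1 and 58.4 in NK2, and 43.0, 57.5 and 18.6 CPM in KO1, KO2 and KO3. The 2 lesions of KO3, at 16.9 and 20.3 CPM, lay below every other lesion. The log2 fold change between groups was 0.30 ± 0.52, and -0.04 without KO3. Bax overlaps Gm45808 on the same strand, so reads could be split between them.

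Eda2r (ENSMUSG00000034457.10, chromosome X, 97333840 to 97377216, minus strand), a receptor of the tumour necrosis factor receptor family, showed the widest differences. It had 18.5 CPM in NK1-1, 8.93 in NK1-2, 0.720 in NK1-3 and 9.90 to 12.8 CPM in the lesions of NK2. Control lesions had 3.66 to 11.1 CPM in KO1 and 4.16 to 8.05 in KO2, while KO3-1 had 0.791 CPM, from 6 counts, and KO3-2 had 0 counts, which allows up to 0.708 CPM at 3 counts. Lesions NK1-1, NK2-3 and NK2-4 lay above every control lesion. Summed per mouse it had 13.3 CPM in NK1 and 12.1 in NK2 against 8.69, 6.98 and 0.522 CPM in KO1, KO2 and KO3. Both NK mice were thus above each control mouse, which was true of 1 of the 10 genes and of 7.94% of all genes tested. The value of NK1 rested mainly on NK1-1, with 117 counts beside 22 in NK1-2 and 1 in NK1-3. Lesion NK1-1 also had the highest summed adipocyte markers (512 CPM) and muscle markers (220 CPM) of all lesions, and their part was not tested. The log2 fold change was 1.22 ± 0.92 (adjusted p = 0.9998 in edgeR), and 0.70 without KO3.

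Aen (ENSMUSG00000030609.18, chromosome 7, 78895854 to 78911209, plus strand), a nuclease induced by p53, went the other way. It had 14.4, 47.9 and 68.6 CPM in NK lesions and 48.9, 60.8 and 134 CPM in control lesions. Its mouse values were 30.5 CPM in NK1 and 57.1 in NK2 against 69.0, 66.1 and 58.3 CPM in KO1, KO2 and KO3. Both NK mice lay below each control mouse, NK2 by a narrow margin, and this was true of 1 of the 10 genes and of 6.86% of all genes tested. The log2 fold change was -0.56 ± 0.40, and -0.17 without NK1. Bbc3 (ENSMUSG00000002083.13, chromosome 7, 16308393 to 16318205, plus strand), which encodes the BH3-only protein PUMA, had 3.62 CPM in NK1 and 6.67 in NK2, and 5.32, 5.38 and 6.53 CPM in KO1, KO2 and KO3. Its lowest and highest lesions, 1.89 and 11.5 CPM, were NK1-1 and NK1-3 of the same mouse. It gave -0.15 ± 0.60.

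Of the remaining genes, Zmat3 (ENSMUSG00000027663.12, chromosome 3, 32334792 to 32366014, minus strand) had 61.7, 141 and 182 CPM in NK lesions and 29.4, 122 and 174 CPM in control lesions. Its mouse values were 109 CPM in NK1 and 166 in NK2, and 158, 112 and 49.1 CPM in KO1, KO2 and KO3, a log2 fold change of 0.37 ± 0.52. Groups overlapped, and KO3 was again lowest. Phlda3 (ENSMUSG00000041801.5, chromosome 1, 135766119 to 135769136, plus strand) had 7.90 CPM in NK1 and 15.8 in NK2, and 13.98, 12.1 and 2.958 CPM in KO1, KO2 and KO3, a log2 fold change of 0.29 ± 0.70. Its lowest lesion, KO3-2, had 1 count. Sesn1 (ENSMUSG00000038332.13, chromosome 10, 41809935 to 41908424, plus strand) had 36.0 CPM in NK1 and 19.3 in NK2, and 32.2, 26.6 and 18.5 CPM in KO1, KO2 and KO3, a log2 fold change of 0.10 ± 0.45. The 2 NK mice stood at opposite ends for Sesn1, with 29.97 to 59.8 CPM in the lesions of NK1 and 14.02 to 22.8 CPM in those of NK2. Sesn1 overlaps 9930024M15Rik on the same strand.

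**Figure D2:**
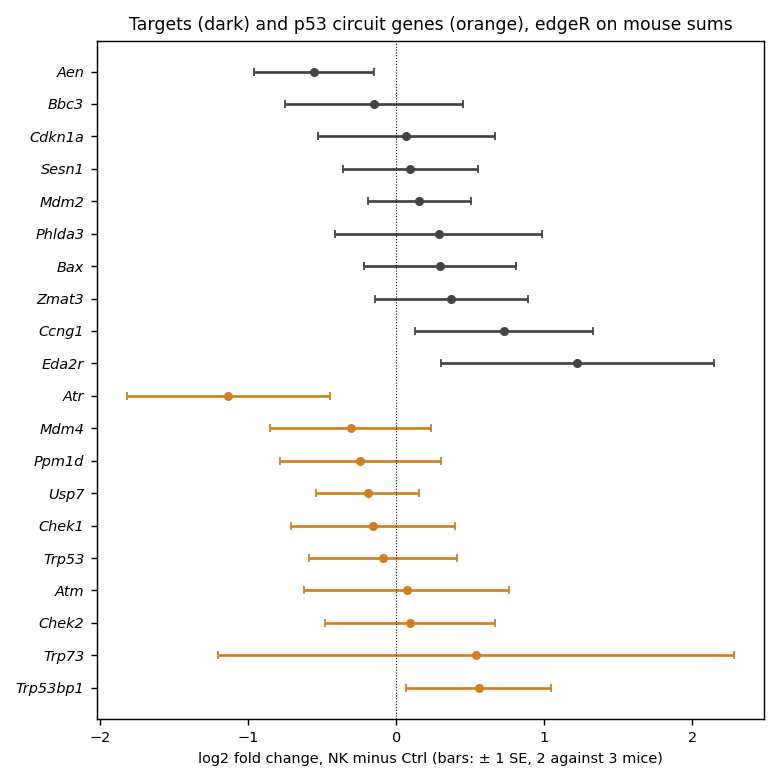
Log2 fold change of NK minus Ctrl (x axis, points with bars of 1 SE) for the 10 target genes (dark) and the 10 tested genes that act on p53 (orange), from edgeR on counts summed over each of 2 NK and 3 control mice. Among the targets, values run from -0.56 for Aen to 1.22 for Eda2r, and no gene passed the threshold.

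Levels were also compared between hosts. Mouse KO3 was the lowest of the 5 mice for 7 of the 10 genes (Cdkn1a, Bax, Ccng1, Phlda3, Sesn1, Eda2r and Zmat3), where it was lowest for 29.6% of all genes tested. Mdm2, Aen and Bbc3 did not share this. NK2 was highest for 6 of the 10, and the share of all genes highest in NK2 was not counted. The mean log2 CPM of the 10 genes was 3.65 in KO3, 4.62 in NK1, 5.05 in KO2, 5.12 in KO1 and 5.30 in NK2. KO3 and NK1, the lowest and next lowest, were on opposite sides of the treatment.

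A test of any difference between the 5 mice, with lesions as replicates within a mouse, called 0 of the 10 genes in edgeR, where 1070 of 15741 genes, or 6.8%, were called. Unadjusted p-values under 0.05 were found for 6 of the 10 genes and for 26.8% of all genes tested. The median F of the 10 genes was 3.05, beside 1.72 for all genes. The smallest adjusted p in edgeR was 0.0719 for Eda2r, then 0.0858 for Bax and 0.0911 for Zmat3, with 0.811 for Mdm2 and 0.983 for Bbc3. DESeq2's likelihood ratio test on the same lesions called 4 of the 10, Eda2r (adjusted p = 5.25e-04), Bax (adjusted p = 0.0150), Zmat3 (adjusted p = 0.0250) and Sesn1 (adjusted p = 0.0370), against a background of 22.5% of genes. Treatment is nested in mouse, so none of these fits tests NK cells.

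Without the 6 lesions rich in mt-Rnr2, edgeR called 4 of the 10 between the remaining 4 mice, Zmat3 (adjusted p = 0.0071), Eda2r (adjusted p = 0.0244), Ccng1 (adjusted p = 0.0320) and Cdkn1a (adjusted p = 0.0460), where 4.35% of genes were called. Mouse KO3 is then the single lesion KO3-1, assumed to vary like the lesions of the other mice. Without KO3 as well, the fit called 0 of the 10 and 3.04% of genes, with the smallest adjusted p at 0.148 for Zmat3. Those 4 calls were thus not made without KO3-1. Markers of other cells also differed between the control mice. Summed neutrophil markers were 1334 and 4940 CPM in its lesions, beside 181 to 341 CPM in KO1 and 922 to 2427 CPM in KO2, and summed fibroblast markers were 140 and 371 CPM, beside 455 to 867 CPM in KO1 and 467 to 668 CPM in KO2. For summed neutrophil markers, KO3-1 lay within the range of KO2 and KO3-2 above it. For summed fibroblast markers both lesions of KO3 lay below the other control lesions. By mean log2 CPM of the fibroblast markers only KO3-2 did, at 3.63. By that measure KO3-1, at 4.80, lay above KO2-2 (4.57) and KO2-3 (4.34) and below the remaining lesions of KO1 and KO2. Lesion KO3-1 had 17830 CPM of summed lung epithelium markers, the highest sum among controls. The sum in KO3-2 was 2603 CPM, the median of the control lesions. By mean log2 CPM of these markers KO1-2 was highest among controls at 7.15, with 6.98 in KO3-1 and 5.51 in KO3-2. The part of these cells in the low values of KO3 was not tested.

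Genes that act on p53 were set beside its targets. Of 12 genes that make up the p53 circuit, 10 passed the filter on low counts, 4 with higher and 6 with lower fitted values in the NK group and 0 past the threshold, with a median log2 fold change of -0.12. Trp53 itself had 29.7 CPM in NK1 and 88.6 in NK2, and 71.6, 66.7 and 50.7 CPM in KO1, KO2 and KO3, a log2 fold change of -0.09 ± 0.50. Its lowest mouse was NK1, not KO3. Mdm4, a partner of Mdm2 that restrains p53, had 177 CPM in KO3 and 58.3 to 93.0 CPM in the other 4 mice, with a log2 fold change of -0.31 ± 0.55. Atr, a kinase that signals stalled replication, had 209 CPM in KO3 against 36.1 to 70.6 CPM elsewhere (log2 fold change -1.13 ± 0.68). It was the 1 circuit gene called between mice (adjusted p = 0.0462 in edgeR), and 10 of 30 alternative fits called it, with adjusted p-values from 0.0015 to 0.755. Without lesion KO3-2 its adjusted p was 0.275. Chek2, a kinase downstream of the damage sensor Atm, had 106 CPM in KO3 and 79.3 CPM in NK1. In the other 3 mice Chek2 had 32.7 to 47.2 CPM, and it gave 0.09 ± 0.57. The lesions of KO3 were unlike. The 12 circuit genes together had 962 CPM in KO3-2, a lesion rich in mt-Rnr2, and 465 CPM in KO3-1. The latter lay within the 250 CPM (KO2-4) to 516 CPM (KO1-2) of the lesions of the other mice.

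Of the other circuit genes, Ppm1d, a phosphatase that switches p53 signalling off, had 4.85 and 6.49 CPM in NK1 and NK2 and 6.65 to 6.84 CPM in controls (-0.24 ± 0.54). Usp7, which removes ubiquitin from p53 and Mdm2, gave -0.19 ± 0.35, Chek1 -0.15 ± 0.55, Atm 0.07 ± 0.70 and Trp53bp1, a damage site adaptor, 0.56 ± 0.49. Trp73, a relative of p53, had 9.33 CPM in NK1 and 0.428 in NK2, and 2.90, 0.0219 and 7.13 CPM in KO1, KO2 and KO3, and its wide spread gave 0.54 ± 1.74. Trp63 had 15 counts in the NK group and 1 in controls, and Cdkn2a, whose Arf product inhibits Mdm2, had 4 counts, all in 1 lesion of KO2, so neither was tested.

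**Figure D3:**
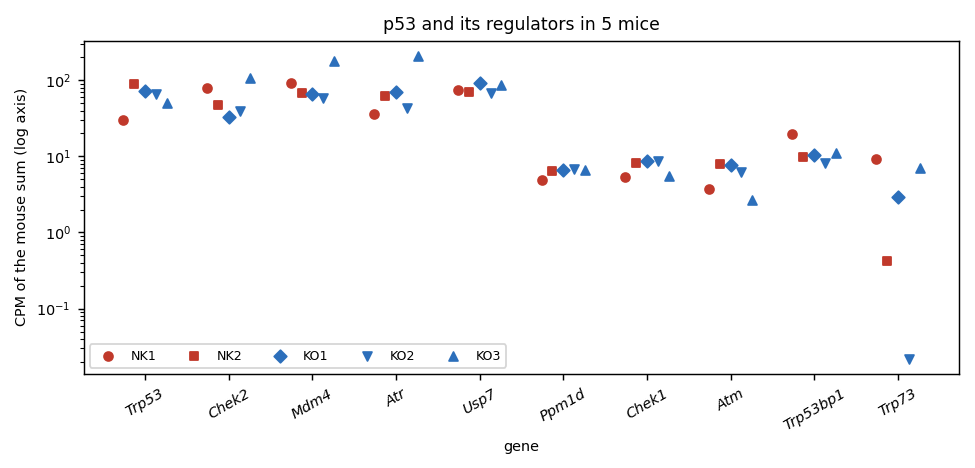
CPM of counts summed per mouse (y axis, log scale) for the 10 tested genes of the p53 circuit (x axis), with a symbol for each of 5 mice, red for mice with NK cells and blue for controls. KO3 is highest for Mdm4 (177 CPM), Atr (209 CPM) and Chek2 (106 CPM), and NK1 is lowest for Trp53 (29.7 CPM).

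Of 30 other targets tested, 17 had higher and 13 lower fitted values in the NK group, 0 were called, and the median log2 fold change was 0.16. The 3 most abundant were Sesn2, a relative of Sesn1 (0.42 ± 0.54), Psrc1, a spindle protein (0.58 ± 0.60), and Ei24, a membrane protein of the endoplasmic reticulum (0.44 ± 0.47). Psrc1 and Ei24 were lowest in KO3, at 13.7 and 19.2 CPM against at least 45.3 and 38.7 CPM in the other mice, whereas Sesn2 was lowest in NK1, at 41.5 CPM. Between mice 29 of the 30 were tested and 0 were called in edgeR; Gdf15 did not pass the filter there.

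Relatives of the death and cell cycle targets are set beside them here. Of 12 tested Bcl-2 family genes, 4 had higher and 8 lower fitted values and 0 were called in either fit. The most abundant were the survival factor Mcl1 (-0.15 ± 0.37), the Bax relative Bak1 (-0.26 ± 0.58) and Bid, which activates Bax and Bak1 (-0.50 ± 0.46). Of 13 cyclins, cyclin-dependent kinases and their other inhibitors, 3 had higher and 10 lower values and 0 were called, with Ccnd1 at -0.65 ± 0.48, Cdk6 at -0.57 ± 0.48 and Cdk4 at -0.03 ± 0.43. The single unadjusted p under 0.05 there was 0.0391 for Cdkn1c, named after its values were seen, with 31 counts in the NK group and 205 in controls. Genes of the Eda pathway, to which Eda2r belongs by its ligand, were near absent, with Eda at 6 counts in the NK group and 22 in controls, Edar at 12 and 18, and the adaptor Edaradd at 11 and 39.

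Over lesions, some of the targets moved together and others did not. Among the 45 pairs of the 10 genes, Pearson's r of log2 CPM over 18 lesions was positive for 29, above 0.5 for 10 and below -0.5 for 2, with a median of 0.15. These values are descriptions, since lesions share 5 hosts and each lesion's values share a library. The highest were 0.77 for Ccng1 with Eda2r, 0.76 for Cdkn1a with Ccng1 and 0.72 for Phlda3 with Eda2r. Cdkn1a, Ccng1, Eda2r and Zmat3 formed a block with each pair at 0.56 or more. Within mice, that is, with the mean of each mouse subtracted, 4 of the 10 pairs above 0.5 stayed above it. Zmat3 then gave 0.11 with Cdkn1a, 0.225 with Eda2r and 0.44 with Ccng1. Phlda3 with Eda2r gave 0.04 within mice, and its Spearman's rho over 18 lesions was 0.34. Over all lesions, Ccng1 with Bbc3 gave -0.66. Cdkn1a with Mdm2 gave -0.24 (Spearman's rho 0.195), a sign that turned in subsets of the lesions.

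In the 12 lesions with at most 40% of counts in mt-Rnr2, 16 pairs were above 0.5, and Eda2r with Zmat3 reached 0.95. That set holds KO3-1, in which most of the genes were low, and without it 8 pairs were above 0.5 and Eda2r with Zmat3 gave 0.76. Cdkn1a with Mdm2 was 0.52 and 0.55 in these 2 sets. Without the lesions of KO3 and without NK1-3, 8 pairs of 45 were above 0.5 over 15 lesions, with 0.60 for Ccng1 with Eda2r, 0.52 for Cdkn1a with Ccng1 and 0.27 for Cdkn1a with Eda2r, each lower than over all lesions. Over the same 15 lesions Zmat3 gave 0.38 with Cdkn1a, 0.35 with Eda2r and 0.33 with Ccng1. Phlda3 with Eda2r gave 0.17 over them. Cdkn1a with Mdm2 was higher there than over all lesions, at 0.73.

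**Figure D4:**
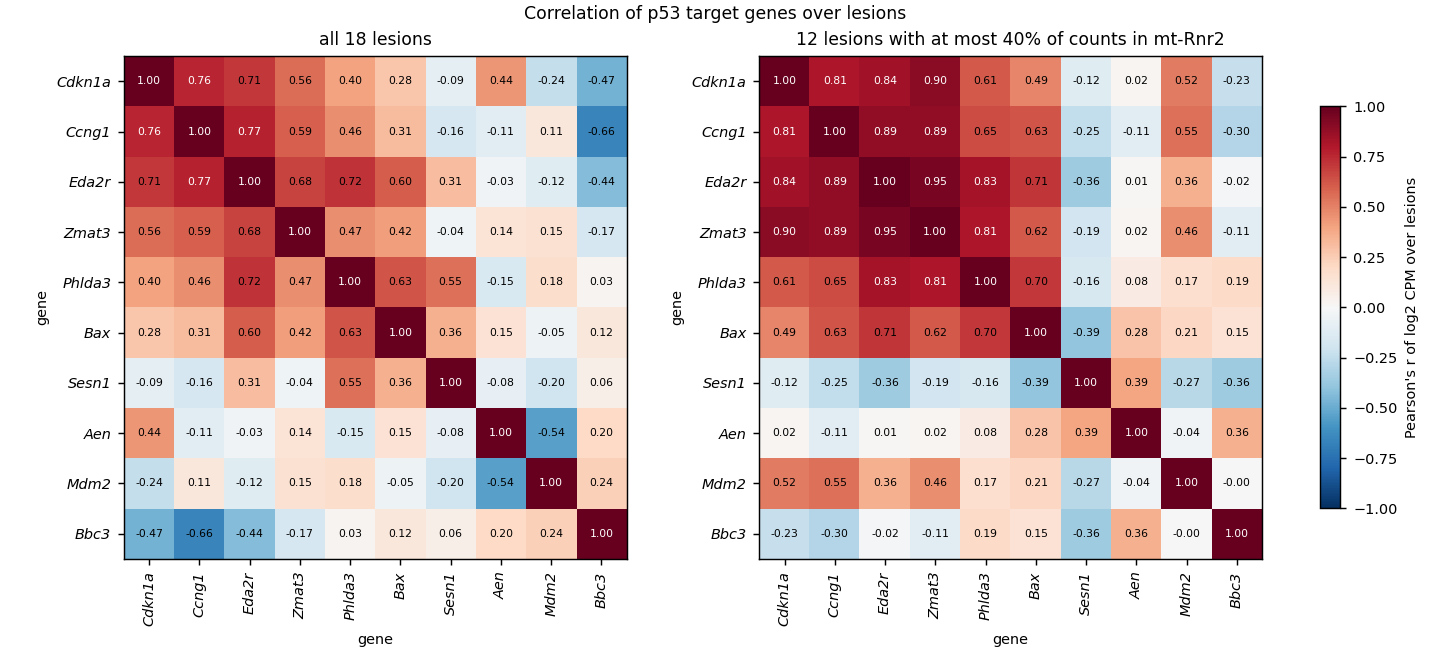
Pearson's r of log2 CPM for each pair of the 10 genes (both axes), over 18 lesions on the left and over the 12 lesions with at most 40% of counts in mt-Rnr2 on the right, with colour from -1 (blue) to 1 (red). The block of Cdkn1a, Ccng1, Eda2r and Zmat3 is red in both panels, Cdkn1a with Zmat3 goes from 0.56 to 0.90, and Sesn1, Aen and Bbc3 stand outside it.

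Cdkn1a encodes a cell cycle inhibitor, but its level ran with the level of proliferation genes. Its log2 CPM had r = 0.91 (Spearman's rho 0.68) with the mean log2 CPM of 20 cell cycle genes over 18 lesions. The value was 0.76 without the 2 lesions farthest on the cell cycle axis, KO3-1 and NK1-3, 0.70 in the 12 lesions with less mt-Rnr2, and 0.63 over the 15 lesions without KO3 and NK1-3. Ccng1 gave 0.82, and 0.71 over the 15 lesions. Bbc3 ran the other way at -0.62, and at -0.46 over the 15 lesions. Cdkn1a also had r = 0.72 with the log2 total count of a lesion, which fell to 0.30 over the 15 lesions, and Ccng1 had r = -0.72 with the mt-Rnr2 share. The part of depth and of tumour cell content in these relations was not tested. Of the 20 cell cycle genes, 8 had higher and 12 lower fitted values in the NK group and 0 were called, while Mki67, a marker of dividing cells, was called between mice (adjusted p = 0.0426 in edgeR), with 95.8 CPM in KO1 and 23.1 CPM in KO3. It was called in 13 of 30 alternative fits, with adjusted p-values from 7.58e-04 to 0.598.

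**Figure D5:**
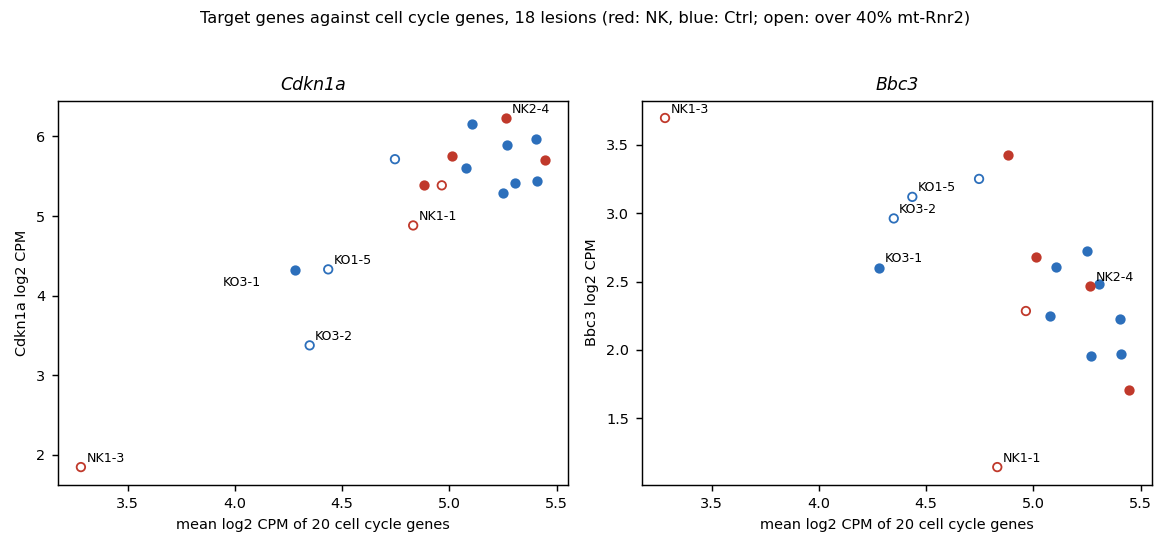
Log2 CPM of Cdkn1a (left) and Bbc3 (right) on the y axes against the mean log2 CPM of 20 cell cycle genes on the x axes, with a point for each of 18 lesions, red for NK, blue for Ctrl and open for over 40% of counts in mt-Rnr2. Cdkn1a rises with the cell cycle genes (r = 0.91) and Bbc3 falls (r = -0.62), with NK1-3 at the far end of both panels.

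Eda2r also ran with fibroblast markers, and within mice this was not particular to it. Its log2 CPM had r = 0.77 with the mean log2 CPM of 8 fibroblast markers (Spearman's rho 0.86) and 0.84 within mice. The value was 0.58 in the 12 lesions with less mt-Rnr2 and 0.72 over the 15 lesions without KO3 and NK1-3. Cdkn1a gave 0.58 with the same markers, 0.87 within mice and 0.10 over the 15 lesions. With the cell cycle genes Eda2r had r = 0.63, 0.78 within mice and 0.13 over the 15 lesions. Lesion NK1-1, with the highest Eda2r, had 8309 CPM of summed fibroblast markers, the highest of all lesions. By mean log2 CPM, the measure correlated here, NK1-2 was highest at 7.14, with 6.85 in NK1-1. In the treatment comparison, 6 of those 8 markers had higher fitted values in the NK group and 0 were called. Summed fibroblast markers ran from 485 to 8309 CPM in NK lesions and from 140 to 867 CPM in control lesions, and their part in the values of Eda2r was not tested.

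Among 8186 other genes with a mean of 10 CPM or more, those most like Cdkn1a over the 18 lesions were Msn, Vim and Ybx3 (r = 0.93 each) and Itgb1 and Zwint (0.92 each). Vim encodes vimentin, the intermediate filament of mesenchymal cells, Msn and Itgb1 encode the membrane linker moesin and an integrin chain, and Zwint encodes a kinetochore protein. For the mean of the 10 genes, they were Sh2b3 (0.90), Reep3 (0.89), Ak1 (0.88), Scara3 (0.87) and Papss1 (0.87). In the 12 lesions with less mt-Rnr2 these 10 values ran from 0.64 for Itgb1 to 0.90 for Ybx3.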

How the data were processed

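Per the submitters' processing notes, reads were handled with bcl2fastq 2.17, STAR, RSEM 1.2.28 and DESeq2 on the mm10 build; the use of strand in counting is not stated there. The deposited gene table holds expected counts from the authors, unscaled, which were rounded and summed over the lesions of each mouse. A second deposited table holds normalized values of the authors that look like log2, and served as an alternative only; its transformation is not stated there. Genes passed filterByExpr (minimum count 10, minimum total 15), and TMM scaling and the robust quasi-likelihood F test of edgeR 4.0.16 (R 4.3.3) were used with Benjamini-Hochberg adjustment over all genes tested and a threshold of 0.05. The SE is the log2 fold change divided by the square root of F. CPM is TMM-scaled, and log2 CPM has a prior count of 2. Differences between mice were fitted on the 18 lesions. Alternatives used DESeq2 1.42.0 and limma 3.58.1. The scripts were tested on simulated data.

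The 10 genes and the gene lists were chosen with earlier results of these data known. Named beyond the 10 genes were all circuit genes and, from the lists of other targets, cell cycle, Bcl-2 family, cyclin-dependent kinase and Eda pathway genes, members past the threshold in either fit, otherwise the 3 most abundant of the list. Marker lists were used as sums, means and counts of members. The 7 epithelial genes were named after their values were seen. Gene coordinates are 1-based from GENCODE M21, and exon lengths are the union of a gene's exons there. The tables held 0 other sample columns. The limit for 0 counts is 3 counts and covers counting error only. Adjusted p-values refer to edgeR unless another tool is named.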

Additional observations from a re-analysis of the deposited data

Results flagged for a closer look

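In groups of 4 to 7 lesions, a value was set aside for a closer look where its gap to the nearest other lesion took up most of the range of its group. Among 40 such groups (10 genes in the lesions of KO1, KO2 and NK2 and in the 7 NK lesions together), 2 values stood out, where chance gives about 1 in 20 groups. Bax had 61.7 CPM in lesion KO1-5, beside 38.4 to 42.2 CPM in the other lesions of KO1; this lesion had the highest mt-Rnr2 share, 68.7%. Aen had 67.8 CPM in lesion KO2-3, beside 60.4 to 60.8 CPM in the other lesions of KO2, a difference that is small in size.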

How the results depend on the processing

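In the treatment comparison 0 of the 10 genes were called in any of 33 alternative fits, and Ccng1, Eda2r, Zmat3 and Aen kept their direction in each, though not their size: leaving out a mouse or lesion moved Ccng1 between 0.27 and 1.11, Eda2r between 0.70 and 1.76, Zmat3 between 0.028 (without NK2) and 0.79 (without KO1) and Aen between -1.08 (without NK2) and -0.17 (without NK1). Zmat3 was 0.018 with the replicate block, and Aen was -0.09 without the 6 lesions rich in mt-Rnr2, a fit that leaves NK2 as the only NK mouse. With other tests or filters 21 genes (DESeq2's Wald test) or 224 genes (no filter on low counts) were called, and 0 to 4 when a mouse or lesion was left out. The labels do not say that mouse numbers pair the animals, and only 2 numbers are shared (correlation of deviations 0.12 for NK1 and KO1, 0.35 for NK2 and KO2); with the mouse number as a replicate block, 7 genes were called, and Cdkn1a gave -0.39, Bax -0.054, Phlda3 -0.21 and Sesn1 -0.15. Direction also turned for Cdkn1a with equal weight for each lesion (-0.15) and in the normalized table (-0.037). For Sesn1 it turned with the mouse as random block (-0.016). When the 6 lesions rich in mt-Rnr2 were left out, it turned for Sesn1 (-0.53) and Bbc3 (0.30). All lesions of NK1 are among those 6, so mt-Rnr2 content and the loss of this mouse cannot be told apart. Without NK1 alone, Sesn1 gave -0.41 and Aen -0.17. Leaving out a mouse or lesion moved Cdkn1a between -0.60 and 0.52, Mdm2 between -0.10 and 0.37, Bax between -0.039 and 0.66, Phlda3 between -0.30 and 0.70, Sesn1 between -0.41 and 0.48 and Bbc3 between -0.67 and 0.25, and the median of the 10 between -0.06 (without NK2) and 0.54 (without NK1). The causes were not tested.

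Between mice, the count of genes was 3281 and of the 10 genes 4 with DESeq2, 4 of the 10 without the lesions rich in mt-Rnr2, and 441 genes without KO3 as well, a fit added after seeing the data. Leaving out a mouse (also added) or a lesion gave 247 (without KO2) to 2381 genes (without KO3-1) and 0 to 4 of the 10. Calls came without mouse NK1 (Bax, Ccng1, Eda2r, Zmat3), NK1-1 (Ccng1, Zmat3), NK1-2 (Aen) and NK1-3 (Eda2r). They also came without KO3-1, a fit that leaves KO3-2 as the only lesion of its mouse. The share of all genes called in each of these fits is not given here, so these calls have no background beside them.

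With 2 mice against 3, p-values rest on a spread shared between genes. NK1-3, with 2964242 counts, gives Cdkn1a as 3 counts and Eda2r as 1, and KO3, the lowest mouse for 7 of the 10 genes, is known from 2 lesions.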
